A study of Homo sapiens with 21 samples.

Results

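The genes described here are 10 transcriptional targets of p53: MDM2, CDKN1A, GADD45A, BBC3, BAX, TP53I3, SESN1, FAS, ZMAT3 and RRM2B. They were taken by symbol from the FPKM tables, in which 28808 genes were listed. All 10 had a row in each of the 6 tables, all 10 were among the 13405 genes tested, and none fell under 6.64 FPKM in any library. FPKM is by definition a level adjusted for the length of the gene and for the mapped fragments of the library. How the deposited values were scaled is not given in the sources used here, and the scale they imply is set out below. RNA sequencing was done on C3A cells, which were cloned from human HepG2 hepatoma cells and are given as wild type in the labels, so every value comes from 1 clone. Cultures in 5 groups had been exposed for 48 h to low concentrations of herbicides, with 3 libraries per group. For glyphosate, which blocks aromatic amino acid synthesis in plants, the concentration was 5.6 µM (0.95 µg/mL). Aminomethylphosphonic acid (AMPA), its main breakdown product, was given at 34 µM (3.7 µg/mL). The auxin-type herbicide 2,4-D was given at 2.5 µM (0.56 µg/mL). The other 2 exposures were mixtures, AMPA+2,4-D and glyphosate+2,4-D, with each compound at the concentration used alone. The 6 unexposed libraries, whose treatment label is "None", were compared with the exposures as 1 group and as the sets of replicates 4 to 6 (unexposed 4-6) and 1 to 3 (unexposed 1-3), because those sets lay apart.

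p53 is a transcription factor that accumulates after DNA damage and other stresses, when the ubiquitin ligase MDM2 no longer removes it. It binds a pair of adjacent half-sites near its target genes and raises the transcription of genes for cell cycle arrest, DNA repair, antioxidant defence and apoptosis. MDM2 is itself a target, which closes a feedback loop. In HepG2 and its derivatives the pathway is often read as a response to genotoxic agents. p53 is controlled mainly at the level of the protein, which was not measured.

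MDM2 shows the binding sequence most clearly, in the internal promoter inside its first intron. The 160 bases at chr12:68808857-68809016 (GRCh38.p14, plus strand, from RefSeq) are printed because they hold a pair of sites one after the other, given in capitals.
MDM2 internal promoter: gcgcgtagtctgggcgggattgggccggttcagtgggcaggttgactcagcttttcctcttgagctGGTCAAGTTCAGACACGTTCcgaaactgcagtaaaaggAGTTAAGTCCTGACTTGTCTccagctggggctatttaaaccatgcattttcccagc
Promoter windows of 300 bases, from 250 bases before to 50 after a RefSeq start, were found for 8 of the 10 genes, as 16 windows. Matches to the p53 consensus were sought as 2 half-sites of 10 bases with a spacer of at most 1 base and at most 3 mismatches. The consensus is palindromic, so 1 pass covers both strands, and neighbouring matches may overlap. Windows of 3 of the 8 genes (MDM2, FAS and SESN1) held a match, in 5 of the 16 windows, and 9.75% of all 35116 windows held one. Allowing at most 2 mismatches left MDM2 and FAS, in 3 of the 16 windows, against 1.34% of all windows. Windows of 1 gene overlap, so they are not independent. The genes were listed as p53 targets and the mismatch limit was chosen after seeing the matches, so these shares are a description and no test. Both matches of MDM2 and the best ones of FAS and SESN1 are set out next, with the 4 central bases of each half-site in capitals.
MDM2, chr12:68808923-68808942, plus strand, intronic, 2 mismatches: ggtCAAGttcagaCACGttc
MDM2, chr12:68808961-68808980, plus strand, intronic, 3 mismatches: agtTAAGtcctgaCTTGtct
FAS, chr10:88991309-88991328, plus strand, exonic in at least 1 transcript, 2 mismatches: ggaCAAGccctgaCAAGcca
SESN1, chr6:109009018-109009037, minus strand, intronic, 3 mismatches: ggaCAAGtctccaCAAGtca
A match describes the letters only, and these windows do not reach the more distant sites at which p53 is known to bind some of the other genes. GADD45A and RRM2B are named only.

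Between 15.2 and 24.35 M reads per library could be recovered from FPKM and gene length. Nothing in the labels tells whether replicates came from separate cultures, so p-values measure the spread between these libraries. The scale factors implied by the FPKM values were 0.942 to 1.01 times the recovered reads in exposed libraries and 1.03 to 1.08 times in unexposed libraries. The median log2 difference over genes was 0.00050 to 0.014 on the FPKM scale and −0.13 to −0.069 on the TPM scale, which divides by the summed length-adjusted counts of a library. Of the genes called, 51.7 to 53.1% were higher in exposed libraries on FPKM and 29.4 to 37.3% on TPM. Calls on TPM, and with limma-voom on recovered reads, are therefore given as well. Both scale by the total of a library, so they are not separate checks. Median-of-ratios factors, which would level the median gene between libraries, were 0.995 to 1.01 on the FPKM values. Ribosomal protein genes took 8.63 to 9.66% of summed FPKM in exposed libraries, against 6.73 to 7.87% in unexposed libraries. Their part in the changes below was not tested. The labels give no batch, and what separated the exposed cultures from the unexposed ones, other than the herbicides, cannot be told apart from exposure.

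The 10 genes did not move as one group. MDM2, CDKN1A, GADD45A and ZMAT3 rose in all 5 exposures against unexposed 4-6 and against unexposed 1-3, whereas BAX and TP53I3 fell in all 5 against each set. On TPM, a second scale, the sign of CDKN1A was the opposite for AMPA+2,4-D against unexposed 1-3 (−0.025), and fewer calls of MDM2 were made. The largest changes were the fall of TP53I3, to 13.2 to 20.9 FPKM in exposed libraries against 27.2 to 40.3 in unexposed ones, and the rise of GADD45A, to 50.3 to 64.2 FPKM against 32.9 to 44.4. SESN1, FAS and RRM2B were called in more exposures against unexposed 1-3 than against unexposed 4-6, and BBC3 was called higher in 2 exposures against unexposed 1-3 and lower in 2 against unexposed 4-6. Against all 6 unexposed libraries, limma called 5 of the 10 genes higher and 2 lower with glyphosate, where 27.7% and 25.1% of all genes tested were called. With AMPA it called 4 higher and 2 lower (28% and 24.8% of all genes). With 2,4-D it called 4 higher and 2 lower (25% and 22.6%). With glyphosate+2,4-D it called 5 higher and 2 lower (25.4% and 22.7%), and with AMPA+2,4-D 6 higher and 2 lower (26% and 24.4%). Calls were made at an adjusted p under 0.05, from limma on log2(FPKM + 1) with Benjamini-Hochberg adjustment over the 13405 genes. In either direction 52.7%, 52.8%, 47.6%, 48.1% and 50.4% of all genes were called in these 5 comparisons, so a call of any one gene was common. The median log2 difference of the 10 genes was 0.11 to 0.18 over the 5 exposures, and that of all genes 0.00050 to 0.014.

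**Figure D1:**
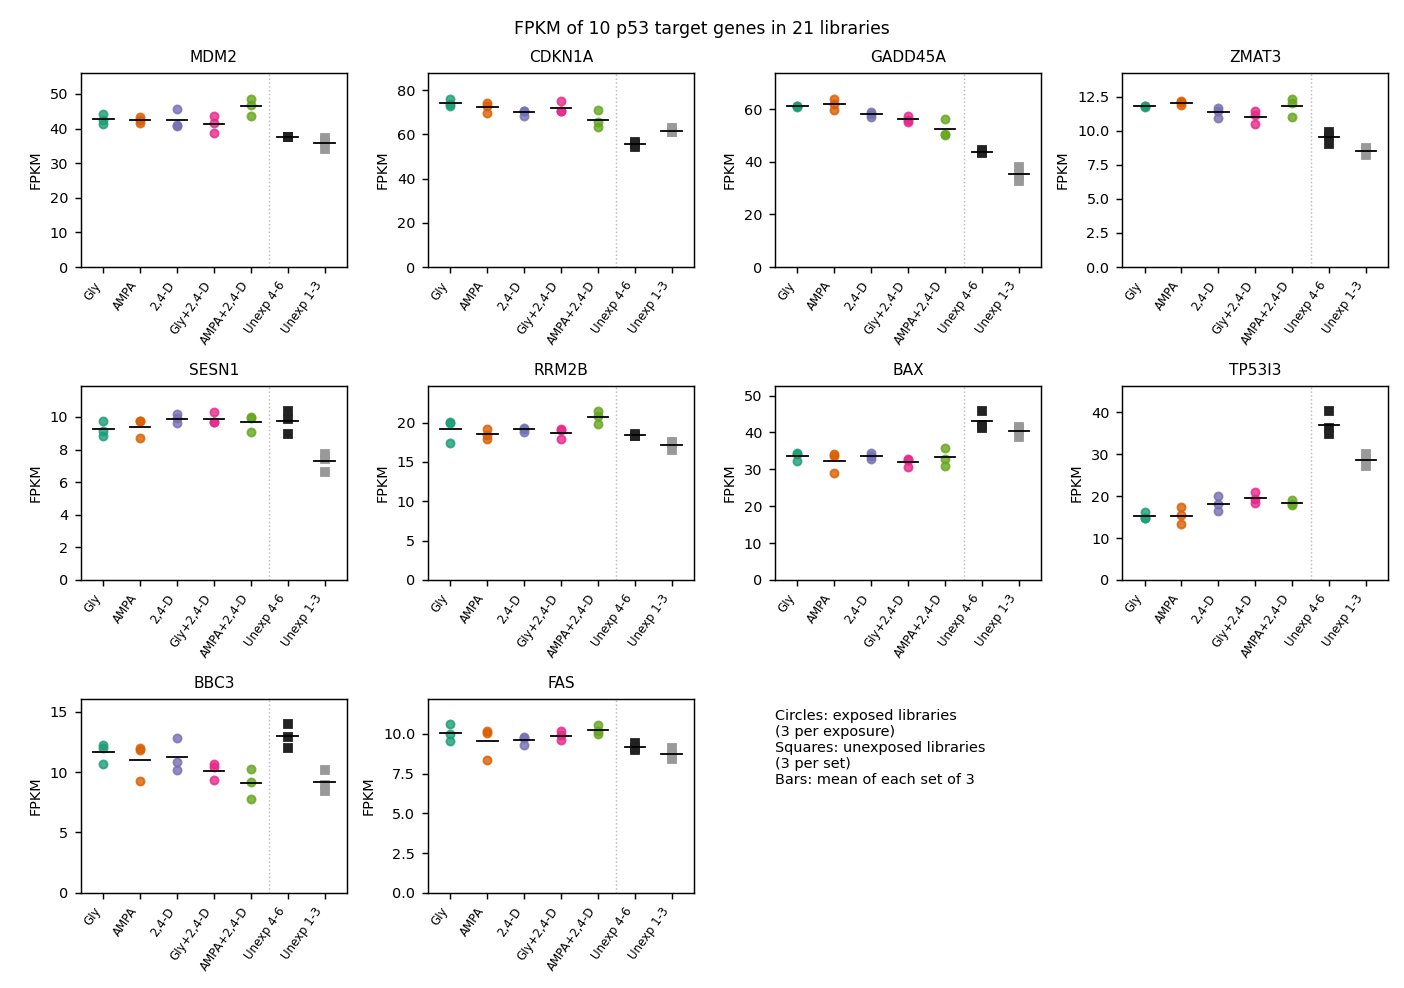
FPKM (linear axes from 0) of the 10 p53 target genes in each of the 21 libraries, by exposure (circles) and by unexposed set (squares), with bars at the mean of each 3. GADD45A stands at 50.3 to 64.2 FPKM in exposed libraries, above all unexposed ones, and TP53I3 at 13.2 to 20.9, below all of them, whereas SESN1 and BBC3 differ mainly between the unexposed sets.

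MDM2, the ubiquitin ligase of the feedback loop, was higher in every exposure. MDM2 (ENSG00000135679, chr12:68808176-68850686) had 42.3, 44.3 and 41.4 with glyphosate, 41.5, 43.3 and 42.4 with AMPA, 40.7, 45.6 and 40.9 with 2,4-D, 41.6, 38.8 and 43.7 with glyphosate+2,4-D and 48.7, 43.5 and 46.9 with AMPA+2,4-D, in FPKM. Unexposed 4-6 had 37.7, 37.4 and 37.7 FPKM and unexposed 1-3 had 36.5, 37.3 and 34.1 FPKM. Every exposed library thus lay above every unexposed one, as was so for 13.8% of all genes. The difference from all unexposed libraries was 0.16 to 0.33 over the 5 exposures (log2 of FPKM + 1, SE 0.048, adjusted p by limma at most 0.0085). It was 0.13 to 0.29 against unexposed 4-6 and 0.20 to 0.36 against unexposed 1-3. Against all unexposed libraries the rise was called in 5 exposures on the FPKM scale and in 1 of 5, AMPA+2,4-D, on TPM and on recovered reads, where the differences were 0.035 to 0.22 and 0.051 to 0.22. Against unexposed 1-3 it was called in 1 of 5 on TPM and in 3 of 5 on recovered reads, and against unexposed 4-6 in 1 of 5 on each. Without glyphosate+2,4-D replicate 3, the call for glyphosate+2,4-D was lost (adjusted p by limma 0.0713), and against unexposed 4-6 that call ended in 11 of the 21 fits that left out 1 library.

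CDKN1A and GADD45A belong to the arrest branch. CDKN1A (ENSG00000124762, chr6:36676460-36687339) encodes p21, which inhibits cyclin-dependent kinases and halts the cell cycle. Its levels were 72.7, 73.9 and 76.2 with glyphosate, 74.3, 72.9 and 69.6 with AMPA, 68.4, 70.6 and 70.7 with 2,4-D, 75.1, 70.5 and 70.6 with glyphosate+2,4-D and 65.6, 63.4 and 70.8 with AMPA+2,4-D, in FPKM. Those of unexposed 4-6 were 56.7, 55.7 and 54.0 FPKM and those of unexposed 1-3 62.7, 60.9 and 60.9 FPKM. The groups did not overlap, but the lowest AMPA+2,4-D library stood close to the highest library of unexposed 1-3. CDKN1A was the only one of the 10 genes that was lower in unexposed 4-6 than in unexposed 1-3, by a log2 difference of −0.15 (SE 0.039). Its rise was 0.26 to 0.41 against unexposed 4-6 and 0.11 to 0.27 against unexposed 1-3 (SE 0.039 for each, adjusted p by limma at most 0.0213). Against all unexposed libraries 5 exposures were called on the FPKM scale, 3 on TPM and 4 on recovered reads. On TPM the 5 calls against unexposed 4-6 remained, but against unexposed 1-3 only 1 of 5 did, with differences of −0.025 to 0.14. The lowest, for AMPA+2,4-D, had the opposite sign there and on recovered reads (−0.018). Its call on the FPKM scale was lost without AMPA+2,4-D replicate 3 and without unexposed replicate 2 or 3 (adjusted p by limma 0.146, 0.0612 and 0.0596). GADD45A (ENSG00000116717, chr1:67685061-67688338) encodes a stress protein that takes part in the arrest before mitosis and in DNA repair. It had 61.4, 60.9 and 61.2 with glyphosate, 64.2, 61.9 and 59.7 with AMPA, 58.4, 57.1 and 59.2 with 2,4-D, 57.4, 55.1 and 55.9 with glyphosate+2,4-D and 50.3, 56.3 and 50.7 with AMPA+2,4-D, in FPKM. Unexposed 4-6 had 44.4, 43.8 and 43.3 FPKM and unexposed 1-3 had 32.9, 38.1 and 34.9 FPKM. The 3 kinds of library formed separate levels, with exposed libraries highest and unexposed 1-3 lowest. Against unexposed 4-6 the rise was 0.25 to 0.49 and against unexposed 1-3 0.56 to 0.79 (SE 0.047, adjusted p by limma at most 0.000268). All 10 of these calls were also made on TPM and on recovered reads. The unexposed sets differed by 0.31 (SE 0.047), so the size of the rise depended on the set.

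The apoptosis genes did not rise together. BAX (ENSG00000087088, chr19:48954815-48961798), whose product opens the outer mitochondrial membrane, had 34.5, 34.2 and 32.3 with glyphosate, 34.3, 33.5 and 29.1 with AMPA, 32.7, 33.7 and 34.5 with 2,4-D, 32.8, 32.6 and 30.7 with glyphosate+2,4-D and 32.8, 35.9 and 30.9 with AMPA+2,4-D, in FPKM. Unexposed 4-6 had 42.0, 45.7 and 41.1 FPKM and unexposed 1-3 had 40.9, 38.7 and 41.4 FPKM. No exposed library reached an unexposed one, as was so in that direction for 11.6% of all genes. BAX fell by 0.30 to 0.37 against all unexposed libraries (SE 0.056, adjusted p by limma at most 0.00025), and was called in all 5 exposures against each set, on TPM and on recovered reads. TP53I3 (ENSG00000115129, chr2:24077433-24085861), also called PIG3, encodes a quinone oxidoreductase linked to reactive oxygen species in p53-driven cell death. It had 16.2, 14.8 and 14.8 with glyphosate, 15.5, 17.3 and 13.2 with AMPA, 18.2, 19.9 and 16.4 with 2,4-D, 20.9, 19.3 and 18.3 with glyphosate+2,4-D and 19.0, 18.0 and 17.9 with AMPA+2,4-D, in FPKM. Unexposed 4-6 had 34.8, 40.3 and 36.2 FPKM and unexposed 1-3 had 30.2, 28.8 and 27.2 FPKM. The highest exposed library lay well under the lowest unexposed one, and unexposed 4-6 lay above unexposed 1-3, with a log2 difference of 0.36 (SE 0.083). The log2 difference of TP53I3 was −1.23 to −0.89 against unexposed 4-6 and −0.87 to −0.54 against unexposed 1-3 (SE 0.083, adjusted p by limma at most 3.15e-05). It too was called on all 3 scales. Leaving out each library in turn ended no call of GADD45A, ZMAT3, BAX or TP53I3 in any exposure.

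BBC3 (ENSG00000105327, chr19:47220822-47232766) encodes PUMA, which neutralises the survival proteins of the BCL2 family. It had 12.3, 12.0 and 10.7 with glyphosate, 12.0, 11.8 and 9.28 with AMPA, 10.2, 12.8 and 10.9 with 2,4-D, 10.6, 9.31 and 10.4 with glyphosate+2,4-D and 7.76, 10.3 and 9.17 with AMPA+2,4-D, in FPKM. Unexposed 4-6 had 14.0, 12.9 and 12.0 FPKM and unexposed 1-3 had 10.2, 8.45 and 8.96 FPKM. The exposed libraries spanned most of the range between the unexposed sets, whose log2 difference was 0.45 (SE 0.11). No exposure was called against all 6 unexposed libraries (adjusted p by limma 0.12 to 0.973), but AMPA+2,4-D was called lower on TPM at −0.38 and on recovered reads at −0.39 (adjusted p by limma 0.0394 and 0.0229). Against unexposed 1-3, glyphosate and 2,4-D were called higher, at 0.31 and 0.26, and neither call was made on TPM or on recovered reads. The glyphosate call ended in 4 and the 2,4-D call in 8 of the 21 fits that left out 1 library. Against unexposed 4-6, AMPA+2,4-D and glyphosate+2,4-D were called lower, at −0.48 and −0.33, and glyphosate+2,4-D lost its call without unexposed replicate 4 or glyphosate+2,4-D replicate 2 (adjusted p by limma 0.0742 and 0.0758). On TPM 3 exposures were called lower against unexposed 4-6, and on recovered reads 4, with differences of −0.60 to −0.23 and −0.61 to −0.22 over the 5. FAS (ENSG00000026103, chr10:88990582-89015785) encodes a death receptor of the tumour necrosis factor receptor family. Its values were 8.36 to 10.6 FPKM in exposed libraries, against 9.01 to 9.43 in unexposed 4-6 and 8.43 to 9.09 in unexposed 1-3. AMPA replicate 2 was the lowest of all 21. The differences from all unexposed libraries were 0.078 to 0.18 (SE 0.051), and glyphosate, AMPA+2,4-D and glyphosate+2,4-D were called (lowest adjusted p by limma 0.00765). The glyphosate call was lost without glyphosate replicate 2 (adjusted p by limma 0.121), AMPA was called without AMPA replicate 2 (0.00714), and the glyphosate+2,4-D call was lost without unexposed replicate 1 or 3 or any of its own replicates. On TPM and on recovered reads no exposure was called, with TPM differences of −0.079 to 0.077. FAS shares 380 exonic bases with ACTA2 on the opposite strand, which had 11.3 to 14.7 FPKM in exposed libraries and 14.7 to 21.6 in unexposed ones. The labels do not state whether reads were assigned by strand, so reads from those bases cannot be told apart, nor can those of the 785 bases that MDM2 shares with AC025423.4 (0.283 to 2.79 FPKM).

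ZMAT3, SESN1 and RRM2B act in RNA regulation, redox defence and nucleotide supply. ZMAT3 (ENSG00000172667, chr3:179017223-179072279) encodes a zinc finger protein that binds RNA. It had 11.8, 11.8 and 11.8 with glyphosate, 12.1, 12.2 and 11.9 with AMPA, 11.6, 11.5 and 10.9 with 2,4-D, 11.4, 10.5 and 11.1 with glyphosate+2,4-D and 12.4, 11.0 and 12.0 with AMPA+2,4-D, in FPKM. Unexposed 4-6 had 9.91, 9.60 and 9.01 FPKM and unexposed 1-3 had 8.72, 8.20 and 8.63 FPKM. The exposed libraries were all higher, and the replicates of a group lay close together. The rise was 0.19 to 0.31 against unexposed 4-6 and 0.34 to 0.45 against unexposed 1-3 (SE 0.043, adjusted p by limma at most 0.00119). All 10 calls were also made on recovered reads and 9 of 10 on TPM. SESN1 (ENSG00000080546, chr6:108986437-109094819) encodes sestrin 1, an inhibitor of mTORC1 signalling that also protects against oxidation. It had 9.74, 9.15 and 8.86 with glyphosate, 9.73, 8.70 and 9.73 with AMPA, 9.92, 9.60 and 10.2 with 2,4-D, 10.3, 9.67 and 9.70 with glyphosate+2,4-D and 9.98, 9.10 and 9.93 with AMPA+2,4-D, in FPKM. Unexposed 4-6 had 9.85, 10.3 and 8.98 FPKM and unexposed 1-3 had 7.44, 7.75 and 6.64 FPKM. The exposed libraries covered the same range as unexposed 4-6, and only unexposed 1-3 stood below. SESN1 was accordingly called higher in 5 of 5 exposures against unexposed 1-3, at 0.31 to 0.40, and in 0 of 5 against unexposed 4-6, at −0.065 to 0.025 (SE 0.060). On TPM the differences from unexposed 4-6 were −0.19 to −0.046, with AMPA called lower (adjusted p by limma 0.0145), and on recovered reads −0.18 to −0.049, with glyphosate and AMPA called lower (0.0393 and 0.0200). The set difference of 0.37 (SE 0.060) was about as large as the change against unexposed 1-3, and in the fit to all 6 unexposed libraries no exposure was called. In that fit 2,4-D and both mixtures were called without unexposed replicate 4 or 5, and 2,4-D and glyphosate+2,4-D with array weights. RRM2B (ENSG00000048392, on chromosome 8) encodes the small subunit of ribonucleotide reductase that p53 induces for repair. It had 17.4 to 21.4 FPKM in exposed libraries, against 18.5, 18.4 and 18.3 in unexposed 4-6 and 16.5, 17.5 and 17.5 in unexposed 1-3. AMPA+2,4-D was called higher against each set, at 0.16 and 0.26 (SE 0.047). Its other calls were against unexposed 1-3 alone, for glyphosate, 2,4-D and glyphosate+2,4-D, and each was lost without at least 1 library, in 3, 1 and 13 of the 21 such fits. Without glyphosate replicate 2, glyphosate was called higher against all unexposed libraries and against unexposed 4-6 (adjusted p by limma 0.00599 and 0.0231). That fit also called 2,4-D against all unexposed libraries and AMPA against unexposed 1-3 (adjusted p by limma 0.0407 and 0.0198). On TPM RRM2B had no calls, and on recovered reads 1, AMPA+2,4-D against unexposed 1-3, with TPM differences of −0.13 to 0.076 against unexposed 4-6.

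**Figure D2:**
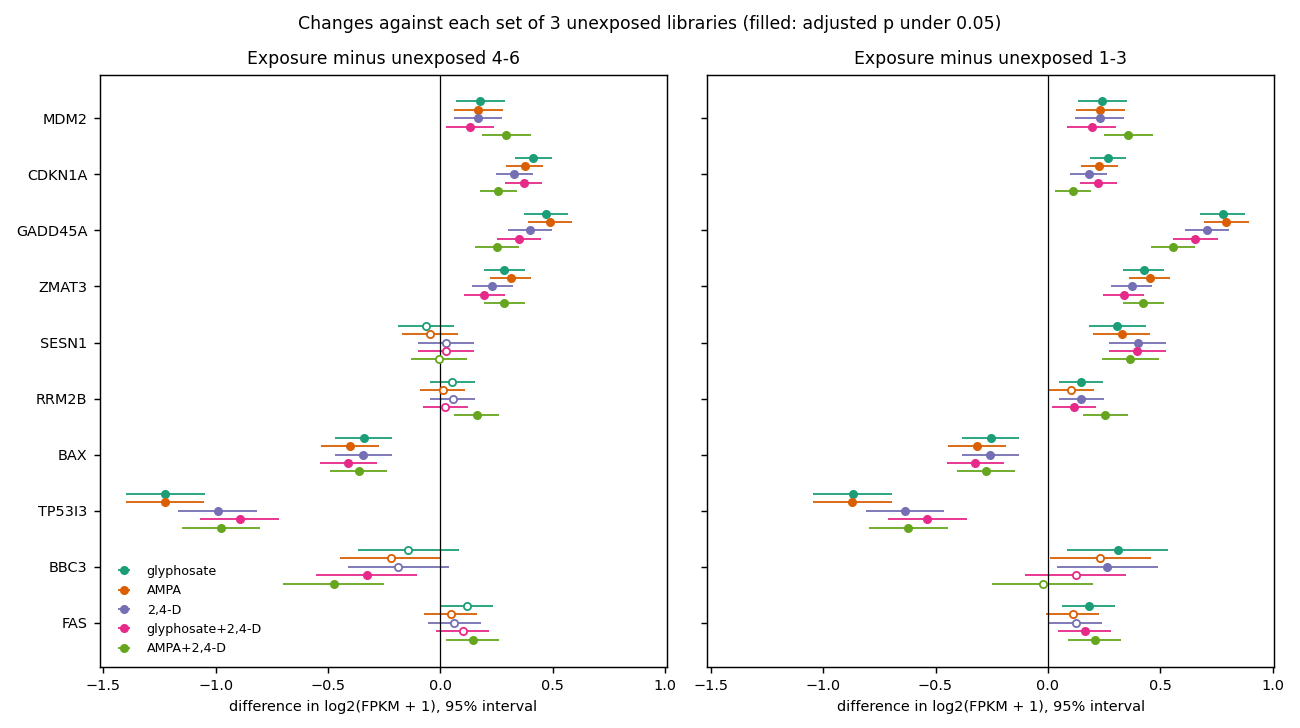
Differences in log2(FPKM + 1) of the 5 exposures from unexposed 4-6 (left) and from unexposed 1-3 (right), by gene, with 95% intervals and filled points at an adjusted p under 0.05. MDM2, CDKN1A, GADD45A and ZMAT3 lie to the right and BAX and TP53I3 to the left in both panels (on TPM, CDKN1A with AMPA+2,4-D was −0.025 against unexposed 1-3), while SESN1 is near 0 on the left and at 0.31 to 0.40 on the right.

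The choice of unexposed set thus decided part of the counts. Against unexposed 4-6, 4 genes were called higher with glyphosate, AMPA, 2,4-D and glyphosate+2,4-D and 6 with AMPA+2,4-D. Of all genes, 27.1%, 27.6%, 24.7%, 25% and 26.3% were called higher in those 5 comparisons. In them 2 genes were lower with each single compound and 3 with each mixture, against 23.9%, 23.7%, 21.7%, 21.8% and 24% of all genes. Against unexposed 1-3, 8 genes were called higher with glyphosate, 5 with AMPA and 7 with each of the other 3 exposures. Of all genes 29.8%, 30.3%, 27.9%, 28.2% and 28.6% were called higher there. In each of these comparisons 2 genes were lower, against 27.7%, 27.7%, 26.3%, 26.7% and 26.7% of all genes. The 4 genes called higher and the 2 called lower in all 5 exposures against each set stood beside 13.4% and 10.7% of all genes. Between the unexposed sets themselves, 9 of the 10 genes were higher in unexposed 4-6 than in unexposed 1-3, with a median log2 difference of 0.12. Over all genes tested the median was 0.00010. The libraries of the sets did not overlap for 8 of the 10 genes, 7 of them above and CDKN1A below, as was so for 22.9% and 22.6% of all genes. The split was proposed from earlier results of these data, so no test was made of the difference between the sets. The fit with the sets apart leaves that difference out of the spread, so its p-values may be too small where the sets differed. SE was 0.076 for GADD45A, 0.102 for TP53I3 and 0.093 for SESN1 against all unexposed libraries, and 0.047, 0.083 and 0.060 against each set. It was also smaller for CDKN1A, BBC3 and ZMAT3, and larger for MDM2, BAX, FAS and RRM2B. All of these comparisons share exposed libraries, and the exposures share the unexposed ones.

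In the main fit, adding a second compound changed none of the 10 genes past the threshold. Each mixture was set against each of its components at the same concentration, in 4 comparisons. Limma called 0 of the 10 genes in each, at 0% of all genes for 3 of the comparisons and 2.71% for AMPA+2,4-D against AMPA. At an unadjusted p under 0.05, 1 gene passed for glyphosate+2,4-D against glyphosate, 0 for glyphosate+2,4-D against 2,4-D, 5 for AMPA+2,4-D against AMPA and 1 for AMPA+2,4-D against 2,4-D. Of the 13405 genes 1066, 578, 2446 and 1415 did so, and limma-voom on recovered reads likewise called 0 of the 10. For AMPA+2,4-D against AMPA, array weights called GADD45A, and the replicate number as a block called GADD45A and TP53I3. TP53I3 was 0.33 higher with glyphosate+2,4-D than with glyphosate (95% interval 0.083 to 0.58, adjusted p by limma 0.45), which was not called. GADD45A was lower with AMPA+2,4-D than with AMPA, by a difference of −0.24 (95% interval −0.42 to −0.053, adjusted p by limma 0.152). MDM2 had differences of 0.12 between AMPA+2,4-D and AMPA and 0.13 between AMPA+2,4-D and 2,4-D, with adjusted p of 0.232 and 0.431 by limma. The intervals reached 0.11 to 0.32 to either side, with a median of 0.13, and BBC3 had the widest, from −0.60 to 0.029 for AMPA+2,4-D against 2,4-D. Calls needed an adjusted p under 0.05, so even differences beyond this reach could go uncalled, as did those of TP53I3 and GADD45A. The result does not show that mixtures and components act alike. Glyphosate and AMPA were given at different concentrations. Side by side, their differences from unexposed libraries were 0.62 and 0.64 for GADD45A, −1.05 and −1.05 for TP53I3, and 0.34 and 0.30 for CDKN1A.

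**Figure D3:**
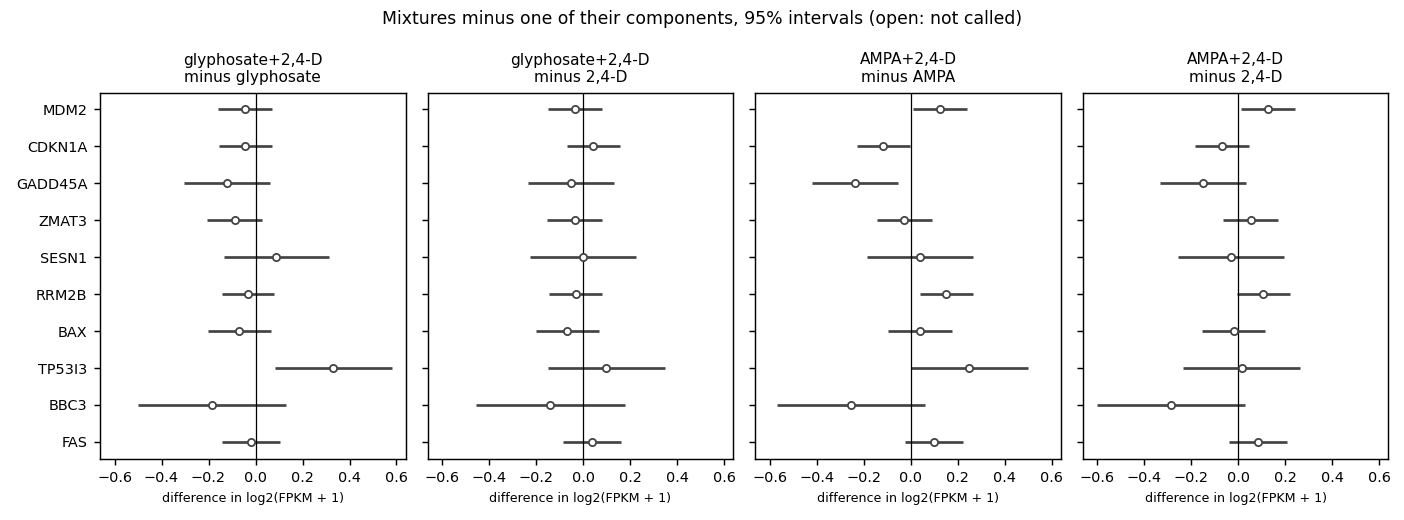
Differences in log2(FPKM + 1) of each mixture from each of its components, by gene, with 95% intervals; open points were not called. All points are open, the TP53I3 difference of 0.33 is the largest, and BBC3 has the widest intervals.

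The changes of the single compounds did not add up in the mixtures. An interaction is the mixture plus unexposed minus both single exposures, on the log2 scale, and is 0 where changes add. For glyphosate and 2,4-D it was called for 6 of the 10 genes, 2 above and 4 below 0, against 33.6% of all genes, and the BAX call ended in 13 of the 21 fits that left out 1 library. For AMPA and 2,4-D it was called for 5 genes, 2 above and 3 below 0, against 36.7% of all genes. The called interactions had the sign opposite to the gene's change, as with GADD45A at −0.67 and −0.79 and TP53I3 at 1.14 and 1.06 for glyphosate and AMPA in turn (adjusted p by limma at most 0.000256). All 3 terms of an interaction are set against the same unexposed libraries, so a difference shared by all exposed libraries gives such a sign by itself.

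Another 50 genes listed as p53 targets were divided in the same way. Of these, 46 were tested, and TP53AIP1, TIGAR, SCO2 and KITLG were at or under 0.82 FPKM in every library. Against all unexposed libraries, 18 to 20 were called higher and 11 to 13 lower, depending on the exposure, with medians of 0.064 to 0.13. Of all genes 25% to 28% were called higher there and 22.6% to 25.1% lower. Against unexposed 4-6 the counts were 14 to 16 higher and 12 to 16 lower, with medians of −0.024 to 0.029, where 24.7% to 27.6% of all genes were higher and 21.7% to 24% lower. Against unexposed 1-3 they were 24 or 25 higher and 10 to 12 lower, with medians of 0.16 to 0.21, where 27.9% to 30.3% of all genes were higher and 26.3% to 27.7% lower. Medians of all genes lay between 0.00016 and 0.016 in these comparisons. On TPM, where 49 of the list passed the filter, 10 to 15 were higher and 15 to 18 lower against all unexposed libraries. The median over all genes was negative on that scale too, as given above, and these TPM counts were not set beside shares of all genes. In all 5 exposures and against each set, 10 genes were higher (PLK2, PERP, GDF15, TRIAP1, PLK3, PPM1D, PMAIP1, APAF1, TNFAIP8 and RAP2B) and 6 lower (ORAI3, STEAP3, PANK1, TP53INP1, SESN2 and NINJ1), as were 13.4% and 10.7% of all genes. PLK2, a polo-like kinase of the stress response, had 5.40 to 6.57 FPKM in the 15 exposed libraries, against 2.34 to 2.52 in unexposed 4-6 and 2.15 to 2.25 in unexposed 1-3. PERP, a membrane protein of desmosomes linked to apoptosis, had 69.5 to 84.7 FPKM in the 15 exposed libraries, against 51.1 to 52.6 in unexposed 4-6 and 45.5 to 46.1 in unexposed 1-3. Their differences from all unexposed libraries were 1.02 to 1.13 and 0.60 to 0.78 over the 5 exposures. GDF15, a secreted stress cytokine, rose to 469.6 to 605 FPKM in exposed libraries, against 356 to 386 in unexposed 4-6 and 298 to 337 in unexposed 1-3. TRIAP1, an inhibitor of caspase activation, differed by 0.53 to 0.60. Among the genes that fell, ORAI3, a calcium channel subunit, had 1.93 to 2.77 FPKM in the 15 exposed libraries, against 4.37 to 4.83 in unexposed 4-6 and 5.11 to 5.67 in unexposed 1-3. STEAP3, an endosomal iron reductase, differed by −0.82 to −0.62 and PANK1, a kinase of coenzyme A synthesis, by −0.62 to −0.37. ABHD4 was lower in all 5 exposures against all unexposed libraries, at −0.57 to −0.49, yet against unexposed 4-6 the differences were −0.098 to −0.026 with 0 of 5 calls, and unexposed 1-3 alone was high, at 7.87 to 9.38 FPKM. Of the 46 genes, 33 were higher in unexposed 4-6 than in unexposed 1-3, with a median difference of 0.18.

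**Figure D4:**
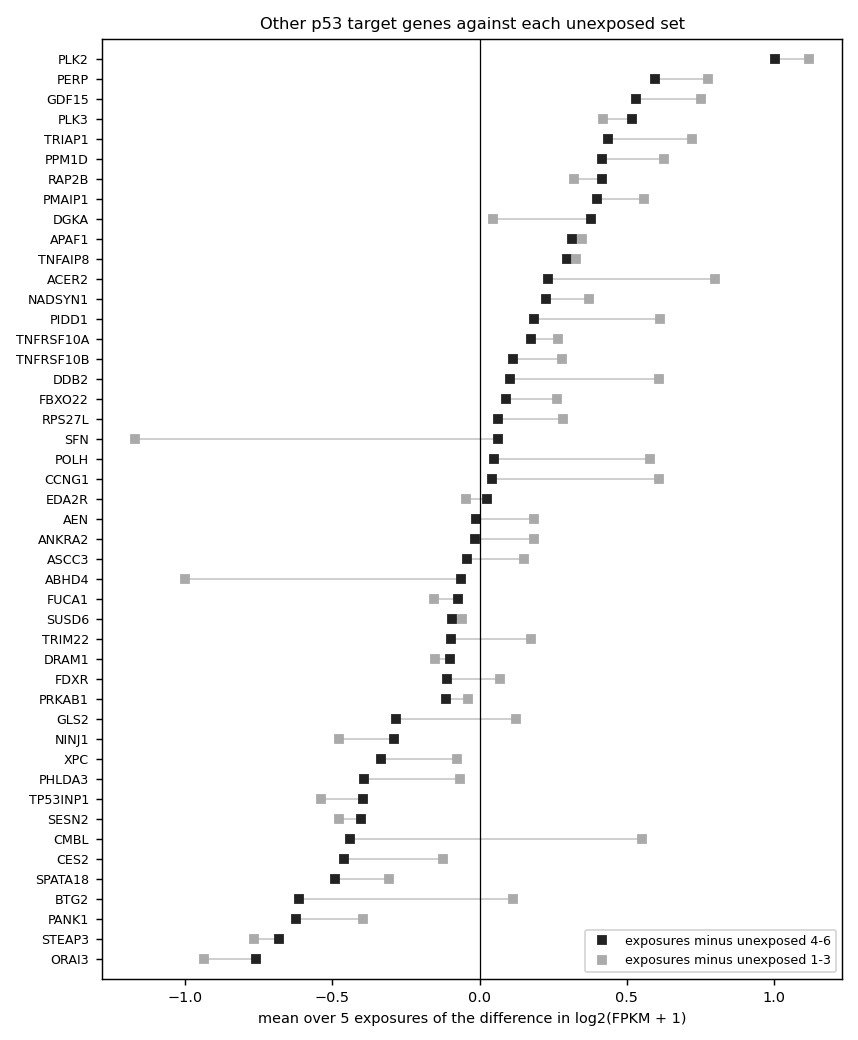
Mean over the 5 exposures of the difference in log2(FPKM + 1) from unexposed 4-6 (dark squares) and unexposed 1-3 (grey squares) for the 46 other p53 target genes tested, in order of the difference from unexposed 4-6. PLK2 leads, PERP and GDF15 follow, ORAI3 and STEAP3 are at the foot, and most grey squares lie to the right of the dark ones, since 33 of the 46 genes were higher in unexposed 4-6 than in unexposed 1-3.

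Of 19 genes for regulators of p53, 6 or 7 were called higher and 2 or 3 lower in each exposure against all unexposed libraries, with medians of 0.022 to 0.084, beside 25% to 28% and 22.6% to 25.1% of all genes. On TPM 4 to 6 were higher and 3 to 8 lower, and the medians had the opposite sign, at −0.14 to −0.025. The median over all genes was negative there too, and these counts were not set beside shares of all genes. RPL5 and RPL11, ribosomal proteins that can bind MDM2 and inhibit it, differed by 0.45 to 0.58 and 0.45 to 0.59, in libraries whose share of ribosomal protein genes was higher too. CHEK1, a kinase of the replication checkpoint, differed by 0.51 to 0.64, and PPP1R13L (iASPP), an inhibitor of p53, by 0.57 to 0.95. These 4 were called higher in all 5 exposures against each set, as were 13.4% of all genes. CREBBP, an acetyltransferase that acts on p53, was the only one lower in all 5 against each set (10.7% of all genes were), at −0.34 to −0.20 from all unexposed libraries. HIPK2, a kinase that phosphorylates p53 in the apoptotic response, was lower in all 5 against unexposed 4-6 and in 4 of 5 against unexposed 1-3, at −0.34 to −0.21 from all unexposed libraries.

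Cell cycle genes that p53 represses through p21 and the DREAM complex depended on the unexposed set. All 20 were tested, and all 20 were higher in unexposed 4-6 than in unexposed 1-3, by 0.17 to 0.65 with a median of 0.40. Against all unexposed libraries, 2 to 5 were called higher and 4 lower, with medians of −0.034 to 0.087 (25% to 28% of all genes were higher and 22.6% to 25.1% lower). Against unexposed 4-6, 2 to 5 were called higher and 6 to 12 lower, with medians of −0.24 to −0.11 (24.7% to 27.6% of all genes were higher and 21.7% to 24% lower). Against unexposed 1-3, 9 to 15 were called higher and 2 to 4 lower, with medians of 0.16 to 0.31 (27.9% to 30.3% of all genes were higher and 26.3% to 27.7% lower). The sign of the list's median thus turned with the set, on TPM as well, where 1 to 3 were higher and 10 to 14 lower against unexposed 4-6 and 6 to 11 higher and 4 or 5 lower against unexposed 1-3. These TPM counts were not set beside shares of all genes. CDK1, the mitotic kinase, was higher in all 5 exposures against each set, with 15.3 to 19.3 FPKM in the 15 exposed libraries, against 12.8 to 13.4 in unexposed 4-6 and 8.52 to 10.1 in unexposed 1-3. CDC20 and PLK1, both needed for mitosis, were lower in all 5 against each set. This 1 gene higher and these 2 lower, of 20, stood beside 13.4% and 10.7% of all genes. CDC20 had 6.45 to 9.73 FPKM in the 15 exposed libraries, against 15.6 to 16.3 in unexposed 4-6 and 11.4 to 14.6 in unexposed 1-3, and PLK1 differed from all unexposed libraries by −0.49 to −0.30. CDC25A, a phosphatase that activates cyclin-dependent kinases, was called higher in 5 exposures against unexposed 1-3 and in 4 against unexposed 4-6. The mitotic kinases AURKB and AURKA were lower in 5 against unexposed 4-6 and in 2 and 3 against unexposed 1-3. Fewer dividing cells and less RNA per cell cannot be told apart in bulk libraries, and the part of the cell cycle in the changes of the 10 genes was not tested.

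**Figure D5:**
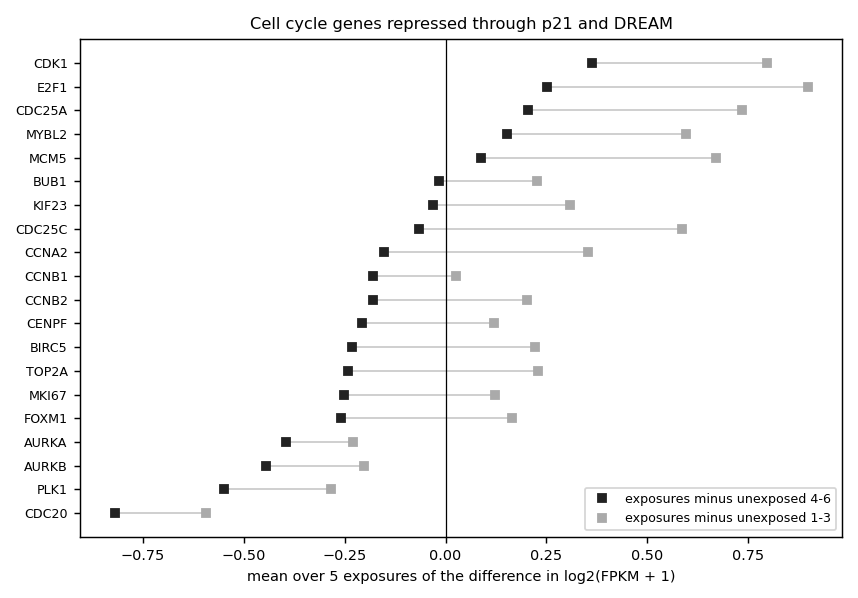
Mean over the 5 exposures of the difference in log2(FPKM + 1) from unexposed 4-6 (dark squares) and unexposed 1-3 (grey squares) for the 20 cell cycle genes. Each grey square lies to the right of its dark one, because all 20 genes were higher in unexposed 4-6, and CDC20 and PLK1 lie left of 0 and CDK1 right of 0 by both.

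Genes with the pattern most like MDM2 over the 21 libraries were ANKRD10, SRSF11 and PPM1A, with root mean square differences of 0.0572, 0.0574 and 0.0577 in centred log2(FPKM + 1). MDM2 itself varied by 0.123 on that scale. For CDKN1A, which varied by 0.143, they were GRK2, TMED3 and APLP2, at 0.0585, 0.0609 and 0.0612. APLP2 averaged 195 FPKM in exposed libraries, against 148 in unexposed 4-6 and 161 in unexposed 1-3.

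The labelled hepatoma cells were checked against markers. All 10 hepatocyte markers were tested, and their summed level was 11716 to 13457 FPKM in exposed libraries, against 7079 to 11923 in unexposed libraries. The markers did not move together. APOA1, AFP, TTR, SERPINA1 and TF were called higher in all 5 exposures against each set, as were 13.4% of all genes. HNF4A, a transcription factor of hepatocytes, and APOB were called lower in all 5 against each set, as were 10.7% of all genes. Their differences from all unexposed libraries were −0.84 to −0.69 and −0.56 to −0.26. ALB, AHSG and FGB depended on the set. Against unexposed 1-3 each was called higher in all 5 exposures. Against unexposed 4-6, ALB and AHSG were called higher in 1 of 5 and FGB lower in 4 of 5. Log2 differences of unexposed 4-6 from unexposed 1-3 ran from 0.047 (HNF4A) to 0.99 (TTR) over the 10 markers. Of 6 fibroblast and stellate markers, DCN and LUM had no row and COL1A1 and COL3A1 were at or under 0.02 FPKM. The summed level of that list, 13.5 to 16.4 FPKM in exposed libraries against 16.0 to 24.4 in unexposed ones, came from ACTA2 and PDGFRB. The endothelial list summed to 0.0716 to 0.198 FPKM in exposed libraries and 0.0896 to 0.200 in unexposed ones. The leukocyte list, of which PTPRC, CD3E and MS4A1 had no row, summed to 0.0716 to 0.468 FPKM in exposed libraries and 0.0994 to 0.404 in unexposed ones.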

How the data were processed

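RNA of C3A cells was isolated by QIAzol lysis and RNeasy columns, and libraries were prepared with a SMARTer kit, per the labels' protocols, which do not state the strand. Reads were aligned with HISAT2 2.0.5 and counted with featureCounts 1.5.0-p3 on GRCh38, per the submitters' processing notes. The authors deposited FPKM values in 1 table per group, and how these were scaled is not given in the sources used here. FPKM times gene length came out within 0.1 of whole reads for 100% of low values, which gave 15.2 to 24.35 M recovered reads per library.

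Genes that reached 1 FPKM in 3 or more libraries and had a row in all 6 tables, 13405 of 28808, were tested on log2(FPKM + 1) with limma 3.58.1 in R 4.3.3, by group means with a mean-variance trend and Benjamini-Hochberg adjustment within each comparison. Folds on this scale understate changes of low genes. All 21 libraries entered 1 fit of 6 groups, or of 7 groups with the unexposed sets apart. Log2 differences between the unexposed sets carry no test. The fit was checked on simulated data drawn with the means of the real genes and their spread within the 7 groups. Those data held no difference between the unexposed sets, so the check does not cover it.

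Other settings were TPM, median-of-ratios scaling, a pseudocount of 0.1, no filter on low FPKM, the compared groups alone, the replicate number as a block, array weights (whose estimation stopped before convergence), limma-voom on recovered reads, and the removal of single libraries or of either unexposed set. The 10 genes are always named, and 1 further gene that the rule names is not reported here. Of each other list, up to 4 genes per direction are named, those with the largest mean change among those called in all 5 exposures; genes called against both sets are named in addition and were chosen after their values were seen. For MDM2 and CDKN1A the 3 most similar protein-coding genes are named. The members, the lists and the split of the unexposed libraries were chosen with earlier results of these data known. The mismatch limit of the p53 site search was chosen after seeing the matches. Promoter sequences are from RefSeq (GRCh38.p14), gene positions and exons from GENCODE on GRCh38.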

Additional observations from a re-analysis of the deposited data

Results flagged for a closer look

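Among the 6 unexposed libraries, replicate 3 held the lowest MDM2 level, 34.1 FPKM, against 36.5 to 37.7 FPKM in the other 5. Its gap to the nearest library was 0.664 of the group's range, which is unusually large for 6 values. About 1 in 20 groups shows such a gap by chance, and it was the only one among the 10 genes in that group.

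The interaction of glyphosate and 2,4-D was called by limma for 6 of the 10 genes, against 33.6% of all genes. A difference shared by all exposed libraries gives, by itself, an interaction opposite in sign to the gene's change. The mixture set directly against glyphosate or against 2,4-D gave calls for 0% of all genes. The interaction was −0.67 for GADD45A, −0.39 for ZMAT3, −0.30 for CDKN1A and −0.25 for MDM2. It was 1.14 for TP53I3 and 0.23 for BAX. BAX had the highest adjusted p of these, 0.0436 by limma, and its call ended in 13 of the 21 fits that left out 1 library.

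With AMPA in the place of glyphosate the interaction was called for 5 of the 10 genes, against 36.7% of all genes, and the same limit holds. It was −0.79 for GADD45A, −0.33 for ZMAT3 and −0.37 for CDKN1A. It was 1.06 for TP53I3 and 0.34 for BAX. The MDM2 interaction with AMPA was −0.075 (adjusted p by limma 0.448) and was not called. Both interactions use the same unexposed and 2,4-D libraries.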

How the results depend on the processing

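Counts of the 10 genes called stayed within 1.5 times the main count, or at 0, in 611 of 618 recomputations. On TPM they came to 6 with glyphosate, 5 with 2,4-D and 5 with glyphosate+2,4-D against unexposed 1-3, and to 3 for the interaction of AMPA and 2,4-D. Recovered reads gave 5 with glyphosate+2,4-D against unexposed 1-3. For AMPA+2,4-D against AMPA, array weights called 1 gene, GADD45A. Over the fits that left out 1 library, counts ran within 1.5 times of the main ones. The cause was not tested. TPM turned the sign of log2 differences, at BBC3 −0.0098 for glyphosate against unexposed, BBC3 −0.15, SESN1 −0.0086, FAS −0.079 and RRM2B −0.10 for AMPA against unexposed, BBC3 −0.054 for 2,4-D against unexposed, and RRM2B −0.059 for glyphosate+2,4-D against unexposed. It did so also at FAS −0.066 and RRM2B −0.078 for AMPA against unexposed 1-3, BBC3 −0.018 and RRM2B −0.033 for glyphosate+2,4-D against unexposed 1-3, CDKN1A −0.025 for AMPA+2,4-D against unexposed 1-3, and RRM2B −0.024 for glyphosate against unexposed 4-6. It did so also at FAS −0.091 and RRM2B −0.13 for AMPA against unexposed 4-6, SESN1 −0.046, FAS −0.0078 and RRM2B −0.018 for 2,4-D against unexposed 4-6, SESN1 −0.080, FAS −0.00050 and RRM2B −0.086 for glyphosate+2,4-D against unexposed 4-6, and ZMAT3 0.021 for AMPA+2,4-D against AMPA. It did so also at TP53I3 −0.0016 for AMPA+2,4-D against 2,4-D, and MDM2 0.073 for the interaction of AMPA and 2,4-D. Limma-voom on recovered reads gave turned signs at BBC3 −0.0060 and RRM2B −0.0048 for glyphosate against unexposed, BBC3 −0.14, FAS −0.062 and RRM2B −0.085 for AMPA against unexposed, BBC3 −0.063 for 2,4-D against unexposed, and RRM2B −0.043 for glyphosate+2,4-D against unexposed. Recovered reads gave in addition FAS −0.049 and RRM2B −0.056 for AMPA against unexposed 1-3, BBC3 −0.0055 and RRM2B −0.015 for glyphosate+2,4-D against unexposed 1-3, CDKN1A −0.018 for AMPA+2,4-D against unexposed 1-3, and RRM2B −0.035 for glyphosate against unexposed 4-6. Recovered reads gave in addition FAS −0.077 and RRM2B −0.11 for AMPA against unexposed 4-6, SESN1 −0.049, FAS −0.010 and RRM2B −0.021 for 2,4-D against unexposed 4-6, SESN1 −0.067 and RRM2B −0.071 for glyphosate+2,4-D against unexposed 4-6, and ZMAT3 0.0060 for AMPA+2,4-D against AMPA. Recovered reads gave in addition MDM2 0.059 for the interaction of AMPA and 2,4-D. Of the differences that either of these scales turned, RRM2B for glyphosate+2,4-D and CDKN1A for AMPA+2,4-D against unexposed 1-3 had been called on the FPKM scale, at 0.12 and 0.11. Array weights turned the sign at BBC3 −0.0036 for AMPA against unexposed, BBC3 −0.0098 for 2,4-D against unexposed, and SESN1 0.027 for AMPA+2,4-D against unexposed 4-6. Median-of-ratios scaling turned the sign at BBC3 −0.0067 for AMPA against unexposed, and RRM2B −0.0051 for AMPA against unexposed 4-6. The fit without unexposed 1-3 turned the sign at BBC3 −0.14 and SESN1 −0.065 for glyphosate against unexposed, BBC3 −0.22 and SESN1 −0.046 for AMPA against unexposed, BBC3 −0.19 for 2,4-D against unexposed, SESN1 −0.0065 for AMPA+2,4-D against unexposed, BBC3 0.0026 and SESN1 0.064 for the interaction of glyphosate and 2,4-D, and SESN1 0.014 for the interaction of AMPA and 2,4-D. The fit without unexposed 4-6 turned the sign at BBC3 0.13 for glyphosate+2,4-D against unexposed, and FAS −0.027 for the interaction of AMPA and 2,4-D. Leaving out 1 library turned signs within the ranges BBC3 −0.060 to 0.12 for AMPA against unexposed, BBC3 −0.048 to 0.10 for 2,4-D against unexposed, BBC3 −0.11 to 0.074 for AMPA+2,4-D against unexposed 1-3, and SESN1 −0.097 to 0.0025, RRM2B −0.013 to 0.030 and FAS −0.00056 to 0.13 for AMPA against unexposed 4-6. Further such ranges were SESN1 −0.026 to 0.067 for 2,4-D against unexposed 4-6, SESN1 −0.027 to 0.066 for glyphosate+2,4-D against unexposed 4-6, SESN1 −0.057 to 0.035 for AMPA+2,4-D against unexposed 4-6, and RRM2B −0.097 to 0.0041 and FAS −0.050 to 0.018 for glyphosate+2,4-D against glyphosate. Further such ranges were SESN1 −0.029 to 0.018 and MDM2 −0.075 to 0.016 for glyphosate+2,4-D against 2,4-D, SESN1 −0.0090 to 0.079, BAX −0.031 to 0.088 and ZMAT3 −0.060 to 0.016 for AMPA+2,4-D against AMPA, TP53I3 −0.053 to 0.080, SESN1 −0.053 to 0.0076 and BAX −0.075 to 0.029 for AMPA+2,4-D against 2,4-D, and FAS −0.078 to 0.051 for the interaction of AMPA and 2,4-D. Same-numbered libraries showed little shared deviation. Over 45 pairs, correlations of deviations from the group means were −0.119 to 0.0884, none over 0.1, and 8 of 18 libraries correlated best with their own number. The labels do not tell whether same-numbered libraries share a culture or run, and a small shared effect could go unseen. With the replicate number as a block, which unexposed 4-6 share with no exposure, 2 genes, GADD45A and TP53I3, were called for AMPA+2,4-D against AMPA, no other count left 1.5 times the main one, and signs turned at BBC3 0.13 for glyphosate+2,4-D against unexposed, and FAS −0.027 for the interaction of AMPA and 2,4-D. GADD45A, ZMAT3, BAX and TP53I3 kept their direction in every recomputation of the exposures against unexposed libraries. With 3 libraries per exposure, the median half-width of 95% intervals between mixtures and components was 0.13 (log2). The labels give neither batch nor culture, and glyphosate and AMPA at 1 concentration each allow no dose comparison.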
